A study of Mus musculus with 11 samples.

Results

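Motor neurons that innervate the diaphragm through the phrenic nerve were compared with motor neurons of the lateral motor column (LMC) that innervate the forelimb through the radial nerve. The comparison used 7 of the 11 Affymetrix arrays of the study, chosen by their sample titles: 4 arrays of phrenic and 3 of LMC radial motor neurons. The other 4 arrays held motor neurons of cervical segments C3-C5 labelled as GFP-only, and they entered the shared estimate of the spread. All samples came from C57/BL6 mouse embryos whose age was not given, and all carried the Hb9::GFP reporter, in which the promoter of the motor neuron gene Hb9 (Mnx1) drives green fluorescent protein. In trunk explants, dextran-tetramethylrhodamine was applied to the phrenic nerve or to the radial nerve, from where it travelled back to the cell bodies, and labelled neurons were isolated by fluorescence-activated sorting of dissociated spinal cords. No mutation or treatment distinguished the groups. They differed in the nerve, and the nerve cannot be told apart from the position of the cell bodies along the spinal cord, which the labels do not give for either nerve-labelled group. Sorting on a reporter of an active promoter also limits the model to neurons in which that promoter is on, and the labels do not say whether the replicates came from separate litters.

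The phrenic motor column lies in the cervical spinal cord and drives breathing, while the LMC lies at limb levels and moves the limb muscles. Motor neurons acquire these identities through Hox transcription factors, whose genes are expressed in an order along the body axis that follows their order in the Hox clusters, and through LIM-homeodomain factors such as Isl1 and Lhx1. The transcription factor Foxp1 is known to be needed for LMC identity, Hox5 proteins for the phrenic column, and Pou3f1 (also called Scip) has been used as a phrenic marker. Cell surface proteins, guidance receptors and transmitter receptors are known to act downstream of such factors in settling where cell bodies sit, where axons grow and which inputs reach the dendrites.

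Values are log2 levels of a probe set, so a difference of 1 is a 2-fold change. Each gene is represented by 1 probe set, and differences are between the groups for that probe set; levels of different genes served only to choose which genes to name. Where 1 group's mean lay below 5, near the background, a change is given as at least so many fold, with values below 5 raised to 5, and no size is given where both means lay below 5. Correlations over all probe sets were 0.965 to 0.985 among phrenic arrays, 0.987 to 0.990 among LMC radial arrays and 0.960 to 0.973 between the types. The 75th percentile of the array values was 7.20 to 7.31 on phrenic and 7.03 to 7.08 on LMC radial arrays, whereas the 25th percentile was lower on every phrenic array than on any LMC radial array. The 25th percentile also split the 11 arrays into a low set, with phrenic replicates 2 and 3, and a high set, with phrenic replicates 1 and 4 and all LMC radial replicates. The excess of the 3' over the 5' control probe set for Actb, which grows as RNA shortens, was 1.05, 1.71, 2.15 and 1.96 on the phrenic and 1.05, 1.01 and 1.12 on the LMC radial arrays (exact two-sided permutation test, p = 0.114, adjusted over 16 measures 0.305). With 4 against 3 arrays an exact permutation test cannot go below p = 0.0571. The part of array set and RNA length in the results was not tested. Counts within the high set stand beside most of the gene lists. The lists whose count moved by more than 1.5 times with that Actb excess as a covariate are given at the end.

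Both groups carried the marks of motor neurons. Ret, the receptor subunit for glial cell line-derived neurotrophic factor, was read at 11.57, 11.43, 11.57 and 11.62 on the phrenic arrays and 11.73, 11.54 and 11.65 on the LMC radial arrays. Slc18a3, which loads acetylcholine into vesicles, was read at 8.11, 7.71, 7.49 and 7.49 on the phrenic arrays and 7.75, 7.72 and 7.85 on the LMC radial arrays. Neither gene passed the test, with differences of -0.093 ± 0.10 (SE; adjusted p = 0.627) and -0.076 ± 0.19 (SE; adjusted p = 0.86). Mnx1, whose promoter drives the reporter, was read at 8.94, 8.91, 9.09 and 9.08 on the phrenic arrays and 8.20, 8.16 and 8.06 on the LMC radial arrays. It was 0.87 ± 0.11 (SE; adjusted p = 0.00123) higher in phrenic neurons, with no overlap between the groups. Chat, the enzyme that makes acetylcholine, was dim in both groups at 5.68, 5.74, 5.16 and 5.33 on the phrenic arrays and 4.9998, 5.03 and 4.74 on the LMC radial arrays, and it did not pass the test (0.55 ± 0.21, SE; adjusted p = 0.155). Olig2, a motor neuron progenitor factor, was below 3 on average in both groups. Olig2 does not stand for progenitor markers in general, of which only 2 of 15 were below 5 in both groups. Sox2 averaged 8.13 on the phrenic and 6.92 on the LMC radial arrays, and Prom1 9.01 and 9.07.

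Of 45037 probe sets, 2979 passed at an adjusted p below 0.05 (6.61%), 1567 of them higher (3.48%) and 1412 lower (3.14%) in phrenic neurons. Counted once per gene, 1251 of 18193 genes passed (6.88%), 705 of them higher (3.88%) and 546 lower (3%) in phrenic neurons, and the median difference over all genes was -0.0048. At least a 2-fold difference was seen for 399 of the higher genes (2.19%) and 196 of the lower genes (1.08%). The arrays of the groups did not overlap for 19.3% of all genes, 9.04% with every phrenic array above and 10.2% with every phrenic array below. Both group means lay below 5 for 7431 of all 18193 genes (40.8%), for 248 of the 546 lower genes (45.4%) and for 32 of the 705 higher genes (4.54%), and levels so close to the background of the arrays carry little information on size. The split of directions moved with the scaling: 56.4% of the genes that passed were higher in phrenic neurons as deposited, 45.7% after a further quantile normalization, 43.1% after centring each array on its median and 71.7% with dim probe sets left out. Leaving out LMC radial replicate 1, 2 or 3 brought the number of genes to 760, 717 or 768, and 371 genes passed within the high array set alone. The 546 lower genes became 354 without phrenic replicate 2. Percentages beside the gene lists that follow are the share of a list's measured genes that passed in either direction, where 6.88% of all genes passed. A higher share is limited as a result, since lists and members were chosen with earlier results of these data known. Lists also differ from all genes in their share of dim genes, with 0 of 6 in Hox paralog groups 4 and 5. Medians are of the list's differences, given a second time with values below 5 raised to 5 where that moves them by 0.1 or more. Of the 177 named genes that passed, 117 had other probe sets on the array, and at least 1 of these passed in the same direction for 66 genes and in the opposite direction for 1, Htr1a. Where a call ended on the loss of an array, the other probe sets passing alike are those that passed in the same direction.

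**Figure D1:**
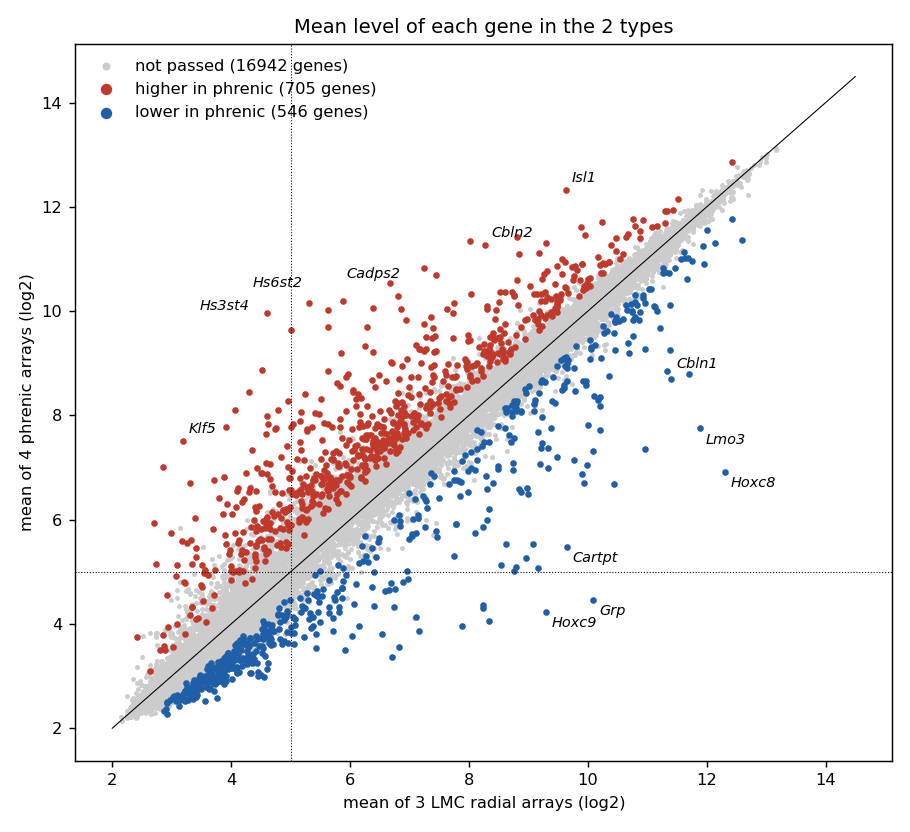
Mean log2 level of each of 18193 genes on the 4 phrenic arrays (vertical axis) against the 3 LMC radial arrays (horizontal axis). Red points mark the 705 genes higher and blue points the 546 genes lower in phrenic neurons, dotted lines mark a level of 5, and many of the blue points lie below both lines.

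The largest excesses in phrenic neurons were seen for enzymes of heparan sulfate, an Eph receptor and vesicle proteins. Hs3st4, a 3-O-sulfotransferase of heparan sulfate chains, was read at 10.09, 10.03, 10.08 and 9.69 on the 4 phrenic arrays and 5.05, 4.71 and 4.07 on the 3 LMC radial arrays. Hs6st2, a 6-O-sulfotransferase of the same chains, was read at 10.36, 10.22, 9.63 and 10.43 on the phrenic arrays and 5.75, 4.89 and 5.28 on the LMC radial arrays. No phrenic array came near an LMC radial array for either gene, and the excess was at least 31-fold (adjusted p = 8.75e-07) for Hs3st4 and 4.85 ± 0.22 (SE; adjusted p = 1.02e-06) for Hs6st2, or 28.9-fold. Synpr, a membrane protein of synaptic vesicles, was read at 10.09, 9.79, 9.84 and 8.81 on the phrenic arrays and 4.89, 5.67 and 4.48 on the LMC radial arrays. Cadps2, which primes dense-core vesicles for release, was read at 10.31, 10.19, 10.25 and 10.03 on the phrenic arrays and 5.78, 5.74 and 6.12 on the LMC radial arrays. The differences were 4.62 ± 0.38 (SE; adjusted p = 5.18e-05) and 4.31 ± 0.14 (SE; adjusted p = 1.03e-07), and the groups lay far apart in both cases. Met, the receptor for hepatocyte growth factor, was read at 10.55, 10.96, 10.75 and 9.92 on the phrenic arrays and 6.44, 6.28 and 7.29 on the LMC radial arrays, a difference of 3.88 ± 0.29 (SE; adjusted p = 2.86e-05).

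The remaining 8 of the 12 genes with the largest excess among those above 5 in both groups were Epha5 (4.40), Dync1i1 (4.08), Ntng1 (3.67), Edil3 (3.59), Gria3 (3.49), Nell1 (3.41), Pcdh17 (3.34) and Rprm (3.33). Dync1i1 encodes an intermediate chain of the motor dynein, Edil3 and Nell1 encode secreted proteins, and Rprm encodes a protein tied to cell cycle arrest. Among genes below 5 on average in LMC radial neurons, those highest in phrenic neurons were, after Hs3st4, Vwc2l (at least 14.7-fold), Kif26b (8.67), Adam12 (10.9), Flrt1 (6.54), Cdh9 (8.62), Galnt13 (8.56), Irx5 (6.4), Slc18a2 (7.85), Sema3d (6.88), Npy (6.64) and Zfpm2 (6.79). Slc18a2, the vesicular transporter of monoamines, was read at 7.91, 8.32, 8.18 and 7.51 on the phrenic arrays and 4.24, 5.03 and 4.52 on the LMC radial arrays. Zfpm2, a cofactor of GATA factors, was read at 7.53, 7.60, 7.36 and 8.57 on the phrenic arrays and 4.67, 4.78 and 4.82 on the LMC radial arrays. Every LMC radial value of these genes was below every phrenic value. Such non-overlap was a condition for choosing the leading genes of both directions, here and where they recur below.

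The genes most in excess in LMC radial neurons included 2 posterior Hox genes and several secreted peptides. Hoxc8 was read at 7.54, 6.601, 4.83 and 8.72 on the 4 phrenic arrays and 12.46, 12.22 and 12.24 on the 3 LMC radial arrays, a difference of -5.38 ± 0.76 (SE; adjusted p = 0.00206) that comes with a wide spread among the phrenic arrays. Hoxc9 was read at 4.31, 3.87, 4.29 and 4.49 on the phrenic arrays and 9.01, 9.42 and 9.44 on the LMC radial arrays, and since the phrenic mean lay below 5 it was at least 19.6-fold lower there. Grp, the precursor of gastrin-releasing peptide, was read at 4.13, 4.61, 3.34 and 5.79 on the phrenic arrays and 10.03, 10.01 and 10.22 on the LMC radial arrays and was at least 29.7-fold lower. All phrenic arrays lay below all LMC radial arrays for these 3 genes, as their choice required, although phrenic replicate 4 read Grp above 5. Lmo3, a LIM-only protein that binds partners of LIM-homeodomain factors, was read at 7.69, 7.54, 6.93 and 8.89 on the phrenic arrays and 11.92, 11.94 and 11.81 on the LMC radial arrays, a difference of -4.13 ± 0.34 (SE; adjusted p = 5.66e-05).

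Besides Hoxc8, Lmo3 and Cartpt (-4.16), the genes above 5 in both groups with the largest deficit in phrenic neurons were C1ql3 (-4.09), Ntm (-3.76), Aard (-3.74), Cdh7 (-3.70), Opcml (-3.70), Zfp503 (-3.61), Lhx1os (-3.56), Cntn3 (-3.40) and Csmd3 (-3.23). Lhx1os is an antisense transcript of the LMC gene Lhx1. The probe sets of Ntm and Cntn3 are of a kind that can bind related sequences. Csmd3 rested on all 3 LMC radial arrays, since its call ended without LMC radial replicates 1, 2 or 3 (adjusted p up to 0.0643), and its phrenic values ranged from 4.25 to 7.70. Among genes below 5 on average in phrenic neurons, those highest in LMC radial neurons after Grp and Hoxc9 were Brinp3 (at least 9.46-fold), Cbln4 (9.19), Tnr (7.36), Gm2694 (7.62), Rpp25 (4.45), Alk (4.33), Krt13 (3.6), Stra6 (3.57), Adarb2 (3.53) and Etv4 (3.3). Alk encodes a receptor tyrosine kinase, Stra6 a receptor for retinol-binding protein and Adarb2 a protein of the RNA-editing family. Krt13 passed with only 1 of its 3 probe sets.

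**Figure D2:**
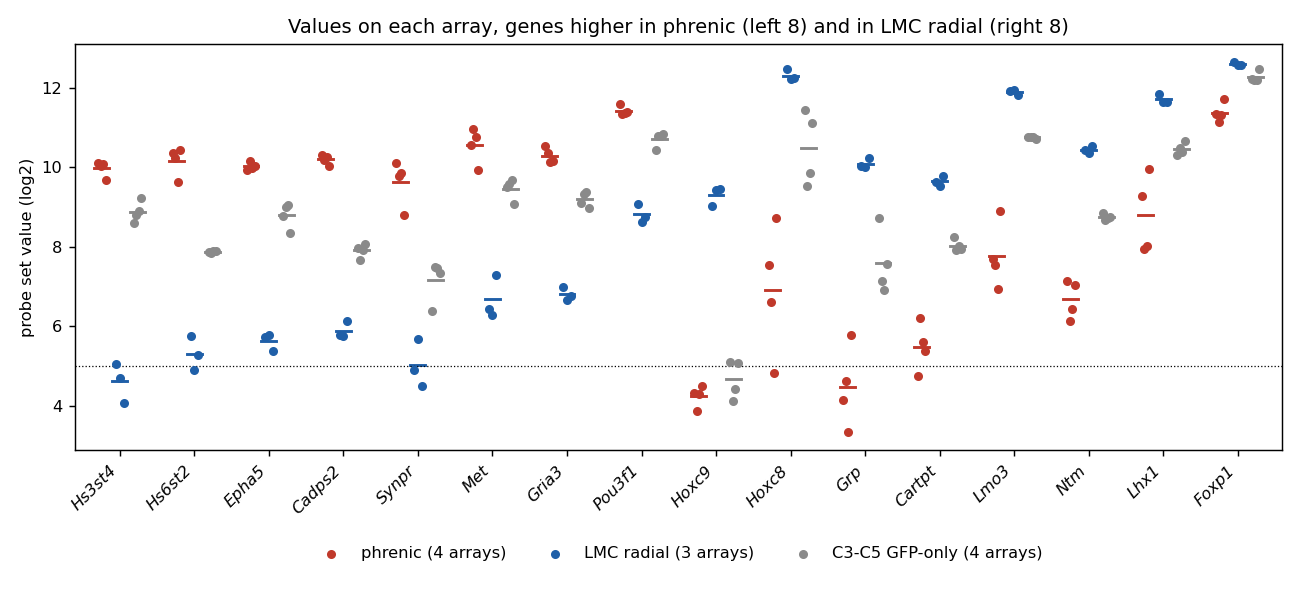
Log2 probe set value on each array for 8 genes higher in phrenic (left) and 8 higher in LMC radial neurons (right), with bars at the group means and a dotted line at 5. Red and blue points do not overlap for any of the 16 genes, which was a condition for choosing most of them. The grey C3-C5 GFP-only arrays have means between the other types, which choosing genes for differences between those types favours.

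The C3-C5 GFP-only mean lay between the phrenic and LMC radial means for all 12 of the leading higher genes above 5 in both groups and for all 12 of the leading lower genes of that kind. It lay between them for 9 of the 12 genes dim in LMC radial neurons, and above both for Irx5, Zfpm2 and Npy. Of the 12 genes dim in phrenic neurons it lay between the means for 10, above both for Gm2694 and below both for Krt13. All of these genes were chosen because phrenic and LMC radial neurons differed in them. That choice favours a C3-C5 mean in between, and the share over all genes was not counted.

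Hox genes were divided by their position in the clusters. Of 6 measured genes of paralog groups 4 and 5, 5 were higher in phrenic neurons and none lower (83.3% passed; median 1.35). Hoxb4 was read at 8.07, 8.34, 8.85 and 9.35 on the phrenic arrays and 6.75, 6.53 and 6.52 on the LMC radial arrays, a difference of 2.05 ± 0.27 (SE; adjusted p = 0.0013). Hoxa5 was read at 10.77, 10.93, 10.69 and 10.48 on the phrenic arrays and 9.496, 9.54 and 9.64 on the LMC radial arrays. Hoxb5 was read at 10.05, 10.31, 10.45 and 10.35 on the phrenic arrays and 8.88, 8.86 and 8.52 on the LMC radial arrays. The values separated the groups for all 3 genes. Hoxa4 (1.58) and Hoxc5 (0.82) were also higher, while Hoxc4 did not pass, with a difference of 0.0044 ± 0.10. Averaged over the 6 genes, phrenic arrays read 9.71, 9.88, 9.998 and 10.01 and LMC radial arrays 8.72, 8.71 and 8.70. The same 5 genes passed whichever array was left out, and 4 of the list passed within the high array set.

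Among 7 measured genes of paralog groups 1 to 3, Hoxd3 rose (2.28 ± 0.26, SE, adjusted p = 0.000532). The others did not pass by their brightest probe sets (14.3% of the list passed, median 0.57). A dimmer probe set of Hoxa3 did pass, lower in phrenic neurons (4.12 against 5.26, adjusted p = 0.00106 by limma). The brightest Hoxa3 probe set differed by 0.53 (adjusted p = 0.0954). Groups 6 to 8 were mixed, with 2 of 6 higher and 3 lower (83.3% passed; median -0.45; -0.24 with low values raised to 5), and 1 higher and 1 lower within the high array set. Hoxd8 was read at 9.20, 8.84, 9.01 and 9.89 on the phrenic arrays and 7.16, 6.99 and 7.60 on the LMC radial arrays. Hoxb6 was read at 8.17, 8.25, 8.50 and 8.64 on the phrenic arrays and 7.43, 7.25 and 6.25 on the LMC radial arrays. Both were higher in phrenic neurons, by 1.98 and 1.41. Hoxc8 fell, as did Hoxa7 (-0.84) and Hoxc6 (-0.48). The calls of these probe sets ended on the loss of single arrays: Hoxa7 without phrenic replicates 1, 2 or 3 or LMC radial replicates 1, 2 or 3 (adjusted p up to 0.125) and Hoxc6 without phrenic replicates 1, 2 or 3 or LMC radial replicates 1 or 3 (adjusted p up to 0.132, 2 of 2 other probe sets passing alike). Hoxc6, a gene tied to brachial LMC identity, was read by its brightest probe set at 6.49, 6.44, 6.47 and 6.62 on the phrenic arrays and 6.97, 6.84 and 7.17 on the LMC radial arrays. Its other 2 probe sets had phrenic means below 5 and were lower there with adjusted p = 0.00344 and adjusted p = 0.00224, at fitted differences of -1.51 and -1.78. Of 14 measured genes of groups 9 to 13, 11 were below 5 in both groups and 3 passed, all lower in phrenic neurons (21.4% passed; median -0.35; 0 with low values raised to 5): Hoxc9, Hoxa9 (-2.50) and Hoxd10, below 5 in both groups. Hoxa9 was read at 6.87, 5.59, 5.71 and 7.83 on the phrenic arrays and 9.26, 9.38 and 8.37 on the LMC radial arrays. The calls ended for Hoxa9 without LMC radial replicates 1 or 2 (adjusted p up to 0.0685, 0 of 1 other probe set passing alike) and Hoxd10 without phrenic replicates 1, 2 or 3 or LMC radial replicates 1 or 3 (adjusted p up to 0.138), and Hoxc9 alone passed within the high array set. Of 8 Hox cofactors, Meis3 fell (-0.50), a call lost without phrenic replicate 2 or LMC radial replicates 1, 2 or 3 (adjusted p up to 0.0774), and the list had a median of -0.062. Meis3 also did not pass within the high array set or with the Actb covariate.

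**Figure D3:**
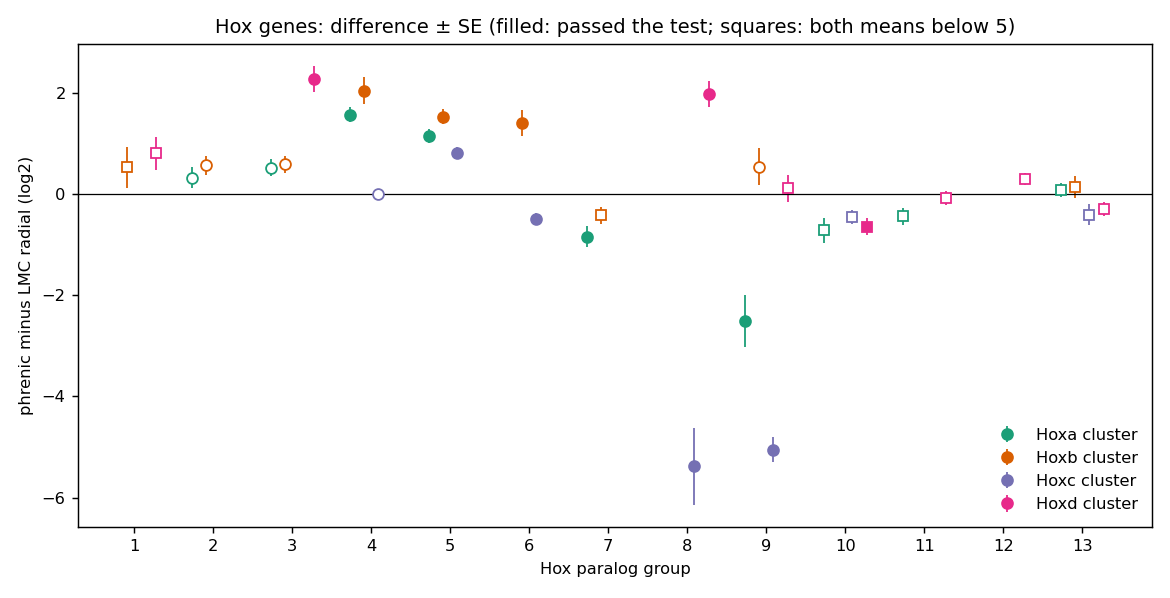
Difference between phrenic and LMC radial neurons (log2, with SE) for each measured Hox gene, ordered by paralog group and coloured by cluster. Filled symbols passed the test, squares mark genes below 5 in both groups, and Hoxc8 and Hoxc9 lie near -5 as fitted, with Hoxc9 below 5 in phrenic neurons, while 5 genes of groups 4 and 5 lie above 0.

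Among factors of LMC identity, more were lower than higher in phrenic neurons. Of 17 measured, 8 were lower and 1 higher (52.9% passed; median -0.84; -0.62 with low values raised to 5); within the high array set 4 were lower and 1 higher. Foxp1 was read at 11.34, 11.13, 11.31 and 11.71 on the phrenic arrays and 12.63, 12.56 and 12.57 on the LMC radial arrays, a difference of -1.22 ± 0.14 (SE; adjusted p = 0.000541), with every phrenic array above 11. Lhx1, a LIM-homeodomain factor of the lateral division of the LMC, was read at 9.27, 7.95, 8.003 and 9.94 on the phrenic arrays and 11.85, 11.64 and 11.63 on the LMC radial arrays, a difference of -2.91 ± 0.41 (SE; adjusted p = 0.00193). Aldh1a2, which makes retinoic acid in limb-level motor neurons, was read at 9.24, 9.76, 9.97 and 9.75 on the phrenic arrays and 11.23, 11.10 and 11.31 on the LMC radial arrays (-1.53). None of these 3 genes overlapped between the groups, and phrenic replicates 1 and 4 had the highest Lhx1 of the phrenic arrays. Etv4 (Pea3), an ETS factor induced in some limb motor pools, was at least 3.3-fold lower, and the receptor gene Gfra1 (-2.02) also fell. The member higher in phrenic neurons was Pou3f1, read at 11.59, 11.35, 11.36 and 11.39 on the phrenic arrays and 9.07, 8.61 and 8.76 on the LMC radial arrays, a difference of 2.61 ± 0.14 (SE; adjusted p = 2.85e-06).

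Of 17 motor neuron determinants, 3 were higher and 1 lower (23.5% passed; median 0.42; 0.31 with low values raised to 5), and 2 higher and 0 lower within the high array set. Isl1 was read at 12.38, 12.18, 12.29 and 12.43 on the phrenic arrays and 10.92, 9.71 and 8.26 on the LMC radial arrays, a difference of 2.69 ± 0.45 (SE; adjusted p = 0.00521). The LMC radial arrays differed from one another more than the phrenic arrays did, and LMC radial replicate 3 had the lowest value. Isl1 did not pass within the high array set. Isl2 (0.062 ± 0.18) and the medial motor column factors Lhx3 (1.26 ± 0.51) and Lhx4 (0.30 ± 0.35) did not pass. Onecut2, a cut homeodomain factor, rose besides Mnx1 and Isl1. Its brightest probe set differed by 0.74, with the call lost without LMC radial replicates 1, 2 or 3 (adjusted p up to 0.0732, 2 of 2 other probe sets passing alike), and the others by 1.42 and 1.38 (adjusted p = 0.00225 or less). Nkx6-2, a homeodomain factor of ventral progenitors, fell (-1.44 ± 0.24, SE; adjusted p = 0.00568). Among 13 LIM-domain and Ldb proteins, Lmo1 (1.47) and Lmo4 (1.43) rose while Lmo3 fell (23.1% passed; median -0.031), with 2 higher and 1 lower within the high array set. Of 8 POU factors, Pou3f1 was the one that passed.

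Iroquois and Kruppel-like factors counted 5 higher and 2 lower of 19 (36.8% passed; median 0.22), and 4 higher and 1 lower within the high array set. Klf5, a zinc finger factor, was read at 7.69, 7.80, 7.84 and 6.71 on the phrenic arrays and 2.87, 2.89 and 3.80 on the LMC radial arrays, an excess of at least 5.69-fold (adjusted p = 2.31e-05). Irx3 (2.28), Irx5 (at least 6.4-fold) and Klf6 (1.001) also rose. Irx5 was read at 8.34, 7.78, 7.65 and 7.61 on the phrenic arrays and 5.49, 4.54 and 3.83 on the LMC radial arrays, and both Klf5 and Irx5 were near or below 5 on all LMC radial arrays. Klf7 (-0.79) and Klf3 (-0.82) fell, the latter with its call lost without phrenic replicate 2 or LMC radial replicates 1 or 2 (adjusted p up to 0.076, 0 of 6 other probe sets passing alike).

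Adhesion families carried strong differences in both directions. Classical cadherins bind like to like and are known to sort motor neurons into pools. Of 17 measured type I and II cadherins, 2 were higher and 4 lower in phrenic neurons (35.3% passed; median -0.30; -0.062 with low values raised to 5), and 2 higher and 2 lower within the high array set. Cdh10 was read at 10.84, 10.79, 10.82 and 10.31 on the phrenic arrays and 7.80, 7.51 and 7.02 on the LMC radial arrays. Cdh9 was read at 8.47, 8.50, 8.41 and 7.05 on the phrenic arrays and 4.32, 4.30 and 3.60 on the LMC radial arrays. Both were higher in phrenic neurons, Cdh10 by 3.25 and Cdh9 at least 8.62-fold, and the groups did not overlap. Cdh7 was read at 5.57, 4.56, 4.61 and 5.61 on the phrenic arrays and 8.52, 8.48 and 9.37 on the LMC radial arrays. Cdh13, an anchored cadherin without a cytoplasmic part, was read at 6.69, 7.17, 7.51 and 6.93 on the phrenic arrays and 9.10, 9.24 and 9.27 on the LMC radial arrays. Both were lower in phrenic neurons (-3.70 and -2.13), again without overlap. Cdh6 (-1.22) and Cdh20 (below 5 in both groups) also fell, and neither passed within the high array set. Of 10 delta protocadherins (50% passed; median 0.019), 3 rose, Pcdh17 (3.34), Pcdh11x (1.52) and Pcdh10 (1.30), and 2 fell, Pcdh9 (-2.63) and Pcdh19 (-1.87). Pcdh17 and Pcdh10 did not pass within the high array set, where the list counted 2 higher and 2 lower, and Pcdh17 did not pass with the Actb covariate. Pcdh17 was read at 8.72, 9.48, 9.28 and 9.29 on the phrenic arrays and 7.72, 6.11 and 3.72 on the LMC radial arrays. Pcdh9 was read at 7.15, 7.74, 7.56 and 6.09 on the phrenic arrays and 9.87, 9.66 and 9.77 on the LMC radial arrays. The LMC radial arrays spread widely for Pcdh17 and closely for Pcdh9.

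Immunoglobulin adhesion proteins counted 8 higher and 4 lower of 33 (36.4% passed; median 0.022), and 3 higher and 4 lower within the high array set. Nectin3 was read at 8.52, 8.07, 7.90 and 8.77 on the phrenic arrays and 5.06, 5.57 and 5.92 on the LMC radial arrays, a difference of 2.80 ± 0.26 (SE, adjusted p = 0.000117). Of the other Nectin3 probe sets, 0 of 5 passed. The contactins moved apart, Cntn1 (2.40) and Cntn4 (1.89) rising and Cntn3 (-3.40) falling. The IgLON proteins, which are anchored to the outer membrane of neurons, did likewise: Lsamp (1.04) and Negr1 (1.33) rose, whereas Opcml (-3.70) and Ntm (-3.76) fell. Cntn4 and Negr1 were added after their values were seen, and Lsamp did not pass within the high array set or with the Actb covariate. Opcml was read at 5.30, 5.37, 5.97 and 4.43 on the phrenic arrays and 9.05, 8.99 and 8.86 on the LMC radial arrays. Ntm was read at 7.14, 6.12, 6.44 and 7.04 on the phrenic arrays and 10.43, 10.36 and 10.53 on the LMC radial arrays. Sdk1 (1.63) and Alcam (0.44) rose and Ncam2 (-2.30) fell, of which the call on that brightest probe set of Alcam ended without LMC radial replicates 1 or 2 (adjusted p up to 0.0715, 3 of 4 other probe sets passing alike). The other Alcam probe sets that passed rose by 1.96, 2.34 and 1.62 (adjusted p = 0.00392 or less).

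Of 25 leucine-rich repeat adhesion proteins and their partners, 4 were higher and 4 lower (32% passed; median -0.006); the count was 2 higher and 2 lower within the high array set. Ntng1, a netrin-G that is anchored to the membrane, was read at 10.15, 10.25, 10.22 and 9.61 on the phrenic arrays and 5.99, 6.68 and 6.48 on the LMC radial arrays. Flrt1 (at least 6.54-fold) and Flrt2 (1.79) were higher and Flrt3 (-1.41) was lower in phrenic neurons, all 3 being ligands of latrophilins and Unc5 receptors. The teneurin Tenm1 fell (-1.52), as did Lrrc4c (-1.06) and Tenm3 (-0.87), while Tenm4 rose (0.97). On these brightest probe sets the last 3 calls ended for Lrrc4c without phrenic replicate 1 or LMC radial replicates 1, 2 or 3 (adjusted p up to 0.105, 0 of 2 other probe sets passing alike), Tenm3 without phrenic replicate 3 or LMC radial replicates 1, 2 or 3 (adjusted p up to 0.114, 1 of 1 other probe set passing alike) and Tenm4 without phrenic replicates 1, 2 or 3 or LMC radial replicates 1, 2 or 3 (adjusted p up to 0.132, 2 of 2 other probe sets passing alike). The other probe set of Tenm3 fell by 1.20 (adjusted p = 0.00535), and a further one of Tenm4 rose by 1.43 (adjusted p = 0.00901). Without LMC radial replicate 1 or 2 the list counted 3 higher and 2 lower.

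**Figure D4:**
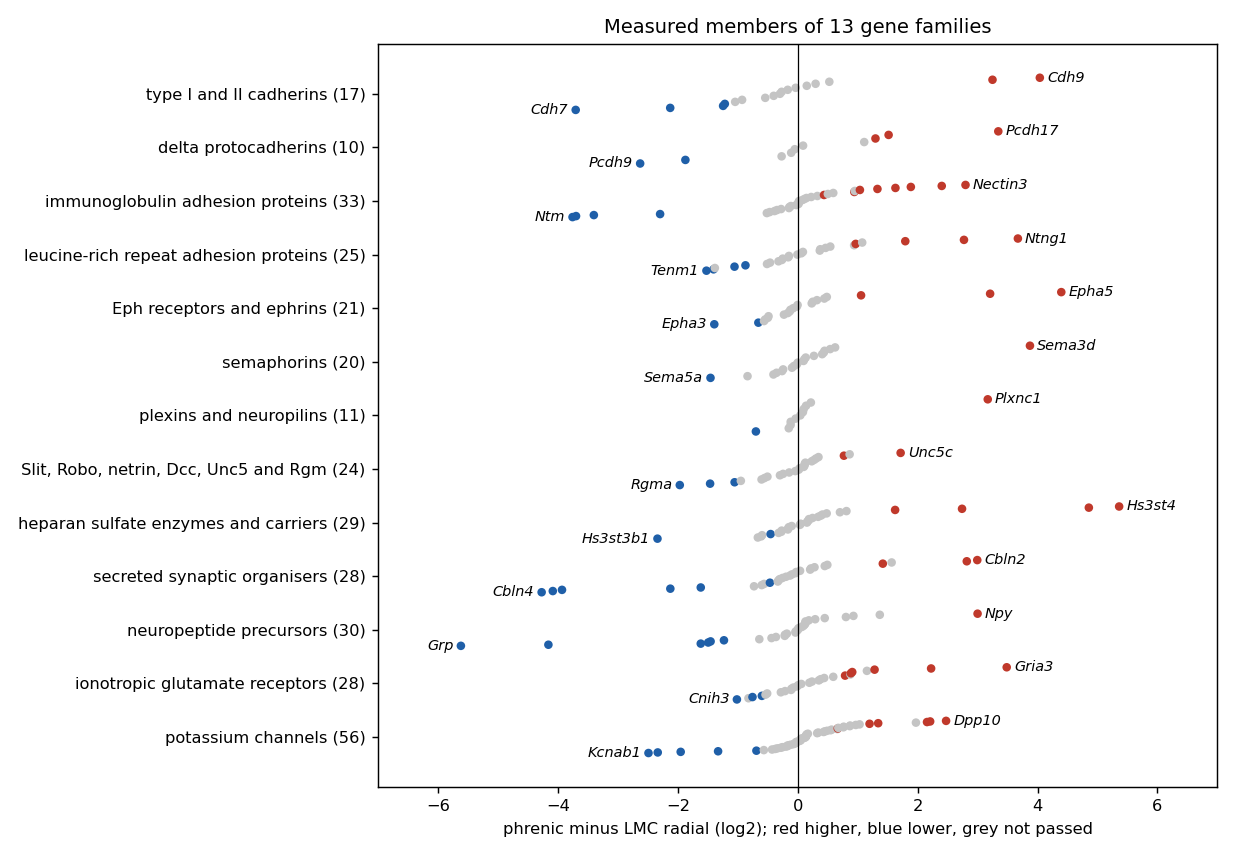
Difference between phrenic and LMC radial neurons (log2) for each measured member of 13 gene families, with the number measured in brackets; red members were higher, blue lower and grey did not pass. Most members lie near 0, and single members of most families stand far out, such as Hs3st4 at 5.36 and Grp at -5.62 as fitted, which for these and other genes below 5 in 1 group is no bound.

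Guidance receptors and ligands changed in few members, some of them by large amounts. Of 21 Eph receptors and ephrins, 3 were higher and 2 lower (23.8% passed; median -0.077). Epha5 was read at 9.92, 10.14, 9.98 and 10.04 on the phrenic arrays and 5.73, 5.78 and 5.36 on the LMC radial arrays, a difference of 4.40 ± 0.18 (SE; adjusted p = 8.06e-07). Ephb1, which is known in limb motor axons, was read at 8.83, 8.60, 8.71 and 9.23 on the phrenic arrays and 6.34, 5.58 and 4.98 on the LMC radial arrays, and it was 3.21 higher. The groups did not overlap for either receptor. Epha10 rose (1.06). Epha4, the receptor that steers lateral LMC axons into the dorsal limb, was read at 11.24, 10.76, 10.99 and 11.12 on the phrenic arrays and 11.69, 11.60 and 11.77 on the LMC radial arrays, and it was lower in phrenic neurons (-0.66 ± 0.13, SE; adjusted p = 0.0124). Epha3 was also lower (-1.39). On these brightest probe sets the calls ended for Epha4 without LMC radial replicate 3 (adjusted p up to 0.0521, 3 of 4 other probe sets passing alike) and Epha3 without phrenic replicates 2 or 3 or LMC radial replicates 2 or 3 (adjusted p up to 0.147, 0 of 3 other probe sets passing alike). The other Epha4 probe sets that passed fell by 1.25, 1.45 and 1.66, with adjusted p = 0.0401 or less, whereas a further Epha3 probe set above 5 in both groups differed by 0.051 (adjusted p = 0.966). Within the high array set 2 members were higher and none lower.

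The promoter of Epha5 is shown because that gene had the largest difference among guidance receptors. RefSeq, on GRCm38.p6, places the 250 bases before its gene start at chr5:84417383-84417632 on the minus strand. Capitals mark TAATTA, a core motif of homeodomain proteins, which was searched on both strands and reads the same on each; it starts 230 bases before the gene start.
Epha5: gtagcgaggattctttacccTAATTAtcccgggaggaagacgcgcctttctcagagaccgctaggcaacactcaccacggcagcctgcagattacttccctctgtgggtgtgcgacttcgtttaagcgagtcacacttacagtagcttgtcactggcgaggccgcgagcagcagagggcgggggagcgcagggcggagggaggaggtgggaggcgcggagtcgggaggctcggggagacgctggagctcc
The motif was found in 4.84% of 32851 such windows, in 3.18% of 785 windows of genes higher and in 4.54% of 529 windows of genes lower in phrenic neurons. Windows of a single chromosome were left out of these counts, and 986 of the 1251 genes that passed had a window. A match describes letters and is not a binding site.

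Of 20 semaphorins, Sema3d rose and Sema5a fell (10% passed; median 0.048), and within the high array set only Sema5a passed. Sema3d, a secreted guidance cue, was read at 8.34, 7.90, 8.14 and 6.75 on the phrenic arrays and 4.88, 3.86 and 2.99 on the LMC radial arrays, an excess of at least 6.88-fold (adjusted p = 0.00056). Of 11 plexins and neuropilins (18.2% passed; median 0.043), Plxnc1 rose, read at 8.96, 8.23, 8.29 and 8.15 on the phrenic arrays and 5.44, 5.54 and 4.73 on the LMC radial arrays, and Nrp1, the receptor subunit for class 3 semaphorins, fell by 0.70. Sema5a fell by 1.46. Among 24 genes of the Slit, Robo, netrin and Rgm families (20.8% passed; median 0.024), with 2 higher and 2 lower within the high array set, the netrin receptors Unc5c (1.72) and Dcc (0.77) rose and Rgma (at least 3.01-fold), Slit1 (-1.46) and the Reelin adaptor Dab1 (-1.05) fell. Unc5c was read at 11.48, 11.43, 11.71 and 11.80 on the phrenic arrays and 10.23, 9.97 and 9.48 on the LMC radial arrays. Slit1 was read at 6.96, 6.85, 7.11 and 7.19 on the phrenic arrays and 8.35, 8.43 and 8.69 on the LMC radial arrays, and neither gene overlapped between the groups.

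Receptors for muscle-derived and other growth factors counted 3 higher and 2 lower of 24 (20.8% passed; median 0.23), and 2 higher and 1 lower without LMC radial replicate 1 or 3 or within the high array set. Met had the largest difference of them. Lifr, a receptor subunit for ciliary neurotrophic factor and its relatives, was read at 10.60, 10.23, 10.26 and 10.20 on the phrenic arrays and 9.08, 9.19 and 9.14 on the LMC radial arrays, a difference of 1.19 ± 0.12 (SE; adjusted p = 0.000221). Gfra1, which presents glial cell line-derived neurotrophic factor to Ret, was read at 7.87, 8.36, 7.76 and 8.75 on the phrenic arrays and 10.28, 10.28 and 10.03 on the LMC radial arrays and was lower (-2.02 ± 0.22, SE; adjusted p = 0.000373), whereas Ret itself did not pass. Gfra3 fell (at least 1.77-fold) and Erbb2, below 5 in both groups, rose. These calls ended for Gfra3 without LMC radial replicates 1 or 3 (adjusted p up to 0.0715) and Erbb2 without phrenic replicates 2, 3 or 4 or LMC radial replicates 1 or 3 (adjusted p up to 0.138).

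Ligands and modulators of BMP, Wnt, IGF and other growth factor signals formed a list of 44 measured genes. Of these, 9 rose in phrenic neurons and 1 fell (22.7% passed, median 0.21, or 0 with low values raised to 5). Within the high array set 5 were higher and none lower. Vwc2l and its relative Vwc2, both with von Willebrand factor C domains that bind BMPs, were read on phrenic arrays at 8.60, 9.45, 9.20 and 8.25 and at 7.48, 7.46, 7.005 and 6.11. On LMC radial arrays they were read at 4.63, 4.56 and 4.35 and at 2.70, 2.76 and 3.11. Vwc2l was higher at least 14.7-fold (adjusted p = 2.31e-05) and Vwc2 at least 4.04-fold (adjusted p = 0.00018), with no overlap of the groups. The protease gene Pappa (2.32), whose product cuts IGF-binding proteins, rose as well, as did the follistatin-like gene Fstl5 (1.08). The member that fell was Bdnf, which encodes brain-derived neurotrophic factor (at least 1.41-fold, adjusted p = 0.00649). Bdnf is also counted among the peptide precursors.

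The retinoid list held 16 measured genes, of which 1 was higher and 3 were lower (25% passed; median -0.013), and 1 higher and 2 lower within the high array set. Crabp1, which binds retinoic acid in the cytoplasm, was read at 9.98, 9.95, 9.82 and 10.91 on the phrenic arrays and 7.56, 8.54 and 7.15 on the LMC radial arrays, a difference of 2.41 ± 0.32 (SE; adjusted p = 0.00143), with phrenic replicate 4 the highest. Stra6 (at least 3.57-fold), Aldh1a2 (-1.53) and Crabp2 (-0.45) fell, and the call on Crabp2 ended without phrenic replicate 3 or LMC radial replicates 1, 2 or 3 (adjusted p up to 0.102). Heparan sulfate enzymes and carriers counted 4 higher and 2 lower of 29 (20.7% passed; median 0.15; 0.036 with low values raised to 5), and 2 higher and none lower within the high array set. Besides Hs3st4 and Hs6st2, the N-deacetylase/N-sulfotransferase genes Ndst3 (2.74) and Ndst4 (at least 1.37-fold) rose. Hs3st3b1, another 3-O-sulfotransferase, was read at 6.99, 6.12, 7.15 and 7.71 on the phrenic arrays and 9.08, 9.48 and 9.43 on the LMC radial arrays and fell (-2.34). The calls on Ndst4 and the glypican gene Gpc5, below 5 in both groups, ended for Ndst4 without phrenic replicates 1, 2 or 3 or LMC radial replicates 1, 2 or 3 (adjusted p up to 0.133, 0 of 2 other probe sets passing alike) and Gpc5 without phrenic replicates 1 or 3 or LMC radial replicates 1, 2 or 3 (adjusted p up to 0.0983). Of 15 tenascins, lecticans and link proteins, Tnr fell, read at 2.80, 3.91, 4.16 and 5.001 on the phrenic arrays and 8.34, 7.68 and 7.62 on the LMC radial arrays; the others did not pass (6.67% passed; median -0.017), with 0 higher and 1 lower within the high array set.

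Of 30 peptide precursors, 6 were lower and 1 was higher in phrenic neurons (23.3% passed; median -5.2e-05), and 1 higher and 4 lower within the high array set. Cartpt, the precursor of the CART peptides, was read at 4.75, 6.21, 5.61 and 5.37 on the phrenic arrays and 9.62, 9.53 and 9.79 on the LMC radial arrays, a difference of -4.16 ± 0.27 (SE; adjusted p = 9.38e-06). Scg2, a secretory granule protein that is processed to peptides, was lower (-1.23), and so were Grp and the neurexin ligand gene Nxph1 (-1.62). Npy, the precursor of neuropeptide Y, was the member that rose, read at 7.90, 7.87, 7.95 and 7.20 on the phrenic arrays and 4.91, 4.73 and 4.55 on the LMC radial arrays. The groups were apart for Cartpt and Npy, with phrenic replicate 4 the lowest phrenic array for Npy.

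The promoter of Cartpt is shown because that precursor is known to be driven through a cAMP response element. RefSeq, on GRCm38.p6, places the 250 bases before its gene start at chr13:99900684-99900933 on the minus strand. Capitals mark TGACGTCA, the full cAMP response element, which reads the same on both strands and starts 112 bases before the gene start.
Cartpt: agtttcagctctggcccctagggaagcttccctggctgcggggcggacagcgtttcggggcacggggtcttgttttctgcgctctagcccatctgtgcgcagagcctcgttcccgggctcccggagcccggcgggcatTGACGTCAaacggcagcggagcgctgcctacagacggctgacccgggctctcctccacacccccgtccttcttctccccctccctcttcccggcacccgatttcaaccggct
That motif was found in 1.55% of the windows counted for the Epha5 motif, in 1.53% of windows of genes higher and in 1.89% of windows of genes lower in phrenic neurons.

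Secreted synaptic organisers counted 3 higher and 6 lower of 28 (32.1% passed; median -0.16; 0 with low values raised to 5), and 2 higher and 5 lower within the high array set. Cbln1, Cbln2 and Cbln4 encode cerebellins, which bridge neurexins to postsynaptic receptors. Cbln2 was read at 11.12, 11.20, 11.54 and 11.23 on the phrenic arrays and 8.43, 8.50 and 7.91 on the LMC radial arrays, a difference of 2.99 ± 0.18 (SE; adjusted p = 6.12e-06). Cbln1 was read at 9.25, 9.23, 8.76 and 9.81 on the phrenic arrays and 11.50, 11.39 and 11.27 on the LMC radial arrays. Cbln4 was read at 3.49, 5.53, 4.77 and 2.46 on the phrenic arrays and 8.22, 8.23 and 8.55 on the LMC radial arrays. Both were lower in phrenic neurons, Cbln1 with a difference of -2.13 and Cbln4 at least 9.19-fold. Cerebellins differed in opposite directions, each with no overlap between the groups. C1ql3 (-4.09), a relative of the cerebellins, fell. The Brinp genes were also split, with Brinp1 (2.82) higher and Brinp3 (at least 9.46-fold) lower, and Lgi2 (1.42) rose.

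Receptors for transmitters included several AMPA receptor genes. Of 28 ionotropic glutamate receptors and their partners, 6 were higher and 3 lower (32.1% passed; median 0.13), and 2 were higher and none lower within the high array set. Gria3 was read at 10.53, 10.36, 10.12 and 10.14 on the phrenic arrays and 6.996, 6.66 and 6.76 on the LMC radial arrays, a difference of 3.49 ± 0.15 (SE; adjusted p = 8.75e-07). Gria4 (0.89), a further AMPA receptor subunit, rose by less, and so did the auxiliary subunit gene Shisa9 (2.22) and the NMDA receptor gene Grin2b (0.79). The AMPA receptor partner Cnih3 fell (-1.02), as did Grin2c (below 5 in both groups) and Grik3 (-0.76), and the call on Grik3 ended without phrenic replicates 1, 2 or 3 or LMC radial replicates 1, 2 or 3 (adjusted p up to 0.167, 0 of 1 other probe set passing alike).

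Of 17 GABA-A and glycine receptor genes (17.6% passed; median -0.35; 0 with low values raised to 5), Gabrg1 rose (at least 2.23-fold) and Glra2 (-1.28) and Gabre (below 5 in both groups) fell; 1 rose and 5 fell without phrenic replicate 4, and none rose and 1 fell within the high array set. Of 38 metabotropic and amine receptors, 2 were higher and 4 lower (15.8% passed; median -0.18; 0 with low values raised to 5), and 1 was higher and none lower within the high array set. Grm7, a presynaptic glutamate receptor, was read at 9.63, 9.14, 8.65 and 7.70 on the phrenic arrays and 6.39, 6.42 and 6.65 on the LMC radial arrays, a difference of 2.29 ± 0.41 (SE; adjusted p = 0.00765). Htr1a, a serotonin receptor gene, was read at 5.86, 6.34, 7.47 and 6.77 on the phrenic arrays and 4.07, 4.26 and 3.9998 on the LMC radial arrays by its brighter probe set and rose (at least 3.05-fold; adjusted p = 0.000893), while its dimmer probe set passed in the other direction. The 4 that fell were Htr7 (-0.98) and Htr2c, Oprk1 and Htr5a, which were below 5 in both groups. These calls ended for Htr7 without LMC radial replicates 1 or 2 (adjusted p up to 0.0689, 0 of 1 other probe set passing alike), Htr2c without phrenic replicates 2 or 3 or LMC radial replicates 1 or 2 (adjusted p up to 0.13, 0 of 1 other probe set passing alike), Oprk1 without phrenic replicates 2 or 3 or LMC radial replicates 1, 2 or 3 (adjusted p up to 0.134, 0 of 1 other probe set passing alike) and Htr5a without LMC radial replicate 3 (adjusted p up to 0.0603, 0 of 1 other probe set passing alike). Of 18 cholinergic genes, 3 rose and none fell (16.7% passed; median 0.018), and 1 rose within the high array set. They were the nicotinic receptor gene Chrna3, read at 7.57, 6.32, 6.20 and 7.47 on the phrenic arrays and 4.24, 4.38 and 4.12 on the LMC radial arrays, acetylcholinesterase, Ache (at least 3.17-fold), and Prima1 (0.90), which anchors that enzyme to membranes. Of the other probe sets of Chrna3 and Prima1, 0 of 2 and 0 of 1 passed.

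Synaptic vesicle and exocytosis genes counted 4 higher and 3 lower of 44 (15.9% passed; median 0.21), and 2 higher and 2 lower within the high array set. Besides Synpr and Cadps2, the synaptotagmin Syt17 (at least 2.94-fold) and the vesicle glycoprotein gene Sv2b (1.28) rose. Rph3a, a Rab3 effector, was read at 5.02, 5.99, 6.36 and 4.77 on the phrenic arrays and 8.73, 8.54 and 8.63 on the LMC radial arrays and fell (-3.10 ± 0.32, SE; adjusted p = 0.000273). Unc13c, a priming factor, fell (at least 1.29-fold), and Syt4 fell (-0.84) with a call that ended without LMC radial replicates 1, 2 or 3 (adjusted p up to 0.0913, 0 of 1 other probe set passing alike).

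Potassium channel genes counted 6 higher and 5 lower of 56 (19.6% passed; median 0.13; 0.031 with low values raised to 5), and 1 higher and 4 lower within the high array set. Kcnc1 and Kcnc4, Kv3 channels of fast spiking neurons, were higher by 2.21 and 2.16 on their brightest probe sets. Of their other probe sets, 0 of 3 and 0 of 1 passed, and the other one of Kcnc4 read 5.45 against 5.39. Kcnc1 was read at 7.47, 8.04, 8.07 and 7.79 on the phrenic arrays and 5.69, 5.67 and 5.55 on the LMC radial arrays. Kcnd2, a Kv4 channel of A-type currents, was read at 6.76, 7.01, 7.15 and 5.24 on the phrenic arrays and 9.01, 8.83 and 8.78 on the LMC radial arrays and fell (-2.34 ± 0.37, SE; adjusted p = 0.00392). Its partners were split: Dpp10 rose (at least 5.07-fold), and Kcnip1 fell (-1.95). Kcnab1 (-2.49), a beta subunit, fell. Of the leak channel genes, Kcnk3 rose (0.67) and Kcnk13, below 5 in both groups, fell. The call on Kcnk3 ended without phrenic replicates 2 or 3 or LMC radial replicates 1 or 2 (adjusted p up to 0.0981, 0 of 2 other probe sets passing alike). That on Kcnk13 ended without LMC radial replicates 1 or 3 (adjusted p up to 0.0686, 0 of 1 other probe set passing alike). Without LMC radial replicate 1, 2 or 3 the list counted 4 and 3, 3 and 4, or 4 and 3 higher and lower.

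Among 33 sodium, calcium, HCN and TRP channel genes, 3 rose and 2 fell (15.2% passed; median 0.25), a count that depended on the arrays. Cacna2d3, an auxiliary subunit of calcium channels, was read at 6.89, 5.46, 4.97 and 6.08 on the phrenic arrays and 8.38, 8.34 and 8.01 on the LMC radial arrays and fell (-2.39 ± 0.35, SE; adjusted p = 0.00252). The calls on Hcn3 (0.82), Scn8a (0.61), Scn9a (0.54) and Trpm3 (at least 1.34-fold) all ended on the loss of single arrays: Hcn3 without phrenic replicates 1, 2 or 3 or LMC radial replicates 1, 2 or 3 (adjusted p up to 0.146), Scn8a without phrenic replicates 1, 2 or 4 or LMC radial replicates 1, 2 or 3 (adjusted p up to 0.175, 1 of 4 other probe sets passing alike), Scn9a without phrenic replicates 1, 2 or 3 or LMC radial replicates 1 or 2 (adjusted p up to 0.107, 1 of 4 other probe sets passing alike) and Trpm3 without phrenic replicate 3 or LMC radial replicates 1, 2 or 3 (adjusted p up to 0.0799, 1 of 5 other probe sets passing alike). Without phrenic replicate 4 the list counted 7 higher and 2 lower, and within the high array set none higher and 2 lower.

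Among lists of general cell biology, the cytoskeleton, apoptosis and stress lists passed at a share near or below that of all genes, and the cholesterol and glycolysis lists above it. Of 29 neurofilament and axonal cytoskeleton genes, Dync1i1, read at 9.81, 9.63, 9.95 and 9.42 on the phrenic arrays and 6.18, 5.96 and 4.72 on the LMC radial arrays, and Kif26b rose and none fell (6.9% passed; median 0.0018). Of 25 intrinsic apoptosis genes (4% passed, median 0.087), Hrk rose (1.25). Its call ended without phrenic replicates 1, 2 or 3 or LMC radial replicates 1, 2 or 3 (adjusted p up to 0.146). Of its other probe sets, 0 of 1 passed alike, and Hrk did not pass within the high array set. Of 19 cholesterol synthesis genes (15.8% passed; median -0.16), 3 fell, Msmo1 (-1.08), Ebp (-0.86) and Lss (-0.75), and none passed within the high array set; the call on Lss ended without LMC radial replicates 1, 2 or 3 (adjusted p up to 0.0842, 0 of 2 other probe sets passing alike). Of 25 glycolysis and hypoxia genes, 2 rose and 3 fell (20% passed; median 0.26), and 1 rose and none fell within the high array set. Pdk1, which shuts pyruvate out of mitochondrial oxidation, rose (1.01 ± 0.12, SE; adjusted p = 0.000823), and Eno2 (0.46) rose while Adm (-2.78), Ndrg1 (-1.05) and Egln3 (at least 1.3-fold) fell. These calls ended for Eno2 without phrenic replicates 2 or 3 or LMC radial replicates 2 or 3 (adjusted p up to 0.107), Adm without LMC radial replicates 1, 2 or 3 (adjusted p up to 0.078, 1 of 1 other probe set passing alike), Ndrg1 without LMC radial replicates 1, 2 or 3 (adjusted p up to 0.0695, 0 of 4 other probe sets passing alike) and Egln3 without phrenic replicates 1, 2 or 3 or LMC radial replicates 1, 2 or 3 (adjusted p up to 0.151, 0 of 1 other probe set passing alike). Of 28 immediate early and stress genes (3.57% passed; median 0.086), with 0 higher and 0 lower within the high array set, Ddit3 fell (-0.66), a call that ended without phrenic replicates 2 or 3 or LMC radial replicates 1, 2 or 3 (adjusted p up to 0.138, 0 of 1 other probe set passing alike).

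Mean levels of markers of other cells that a sort could hold overlapped between the groups. By their brightest probe sets, none of 20 mesenchyme, 12 endothelial, 12 blood and macrophage, 12 glial, 15 progenitor and 21 cell cycle genes passed in the limma fit. In that order, their median differences were 0.43, -0.029, -0.10, 0.11, 0.20 and 0.38, against -0.0048 over all genes. Medians in this paragraph are given as fitted only, without low values raised. At an unadjusted p below 0.05, 4, 1, 3, 1, 2 and 4 of these lists' members would pass, in that order, against 22.4% of all genes. The mesenchyme list averaged 5.64, 5.17, 6.57 and 6.70 on the phrenic and 5.82, 6.05 and 5.02 on the LMC radial arrays (exact two-sided permutation test, p = 0.514). Its collagen genes were readable in both groups, Col1a1 at 8.57 ± 1.11 against 7.56 ± 0.91 and Col3a1 at 8.15 ± 1.15 against 7.53 ± 1.04 (mean ± SD, phrenic against LMC radial); these 2 genes were singled out after their values were seen. Phrenic replicate 4 stood highest of the 7 arrays for progenitor markers at 7.56, interneuron markers at 5.59 and cell cycle genes at 7.23. Of 17 muscle and 18 interneuron markers 1 each fell, Myod1 and Gata3, both below 5 in both groups, and the call on Myod1 ended without phrenic replicates 2 or 3 or LMC radial replicates 1, 2 or 3 (adjusted p up to 0.126, 1 of 1 other probe set passing alike). The median difference was -0.080 for the muscle list and 0.17 for the interneuron list. At an unadjusted p below 0.05 by limma, 3 interneuron markers were higher and 1 lower. Among those above 5 in both groups, Slc17a6 (1.36 ± 0.58, SE) and Lbx1 (1.15 ± 0.67, SE) were higher without passing. Gata2, also above 5 in both groups, was lower without passing (-0.24 ± 0.15, SE). Of 11 sensory ganglion markers, Isl1, which motor neurons also express, rose and the dim Trpv1 fell. In such bulk samples, fewer cells of a type and less RNA per cell cannot be told apart. With the mesenchyme mean as a covariate 1068 genes passed, against 470 with the Actb excess, and the part of neither in the results was tested further. With the Actb excess as a covariate, the higher and lower genes numbered 1 and 1 for Hox paralog groups 6 to 8, 0 and 1 for Hox paralog groups 9 to 13, 3 and 0 for Iroquois and Kruppel-like factors and 3 and 0 for Eph receptors and ephrins. For growth factor receptors of motor neurons they numbered 2 and 1. They numbered 5 and 1 for BMP, Wnt, IGF and other growth factor ligands and modulators. For metabotropic and amine receptors they numbered 2 and 0, and for potassium channels 3 and 4. The counts were 0 and 1 for sodium, calcium, HCN and TRP channels, 0 and 0 for intrinsic apoptosis genes, 0 and 1 for cholesterol synthesis genes and 1 and 0 for glycolysis and hypoxia genes. The remaining lists whose count moved that far had 0 and 0 for immediate early and stress genes, 0 and 0 for skeletal muscle markers, 0 and 0 for spinal interneuron markers and 1 and 0 for dorsal root ganglion sensory markers.

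**Figure D5:**
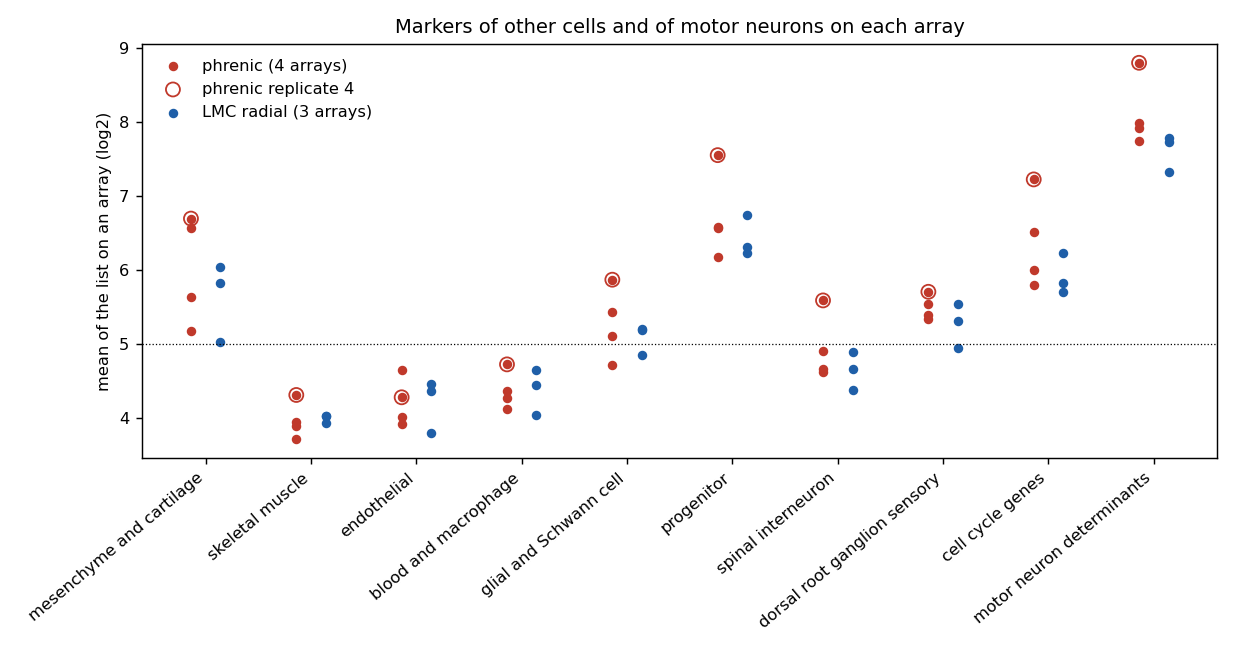
Mean log2 level of each list of marker genes on each phrenic (red) and LMC radial array (blue), with phrenic replicate 4 circled and a dotted line at 5. The colours overlap in every list, and phrenic replicate 4 is the highest array in every list except the endothelial markers.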

How the data were processed

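Affymetrix arrays were hybridised with biotinylated cRNA made from 6 ug of total RNA, per the labels. The deposited values are log2 levels per probe set that the authors made with RMA, per the submitters' processing notes, which corrects background, normalizes quantiles and summarises probes; its version is not given in the sources used here. The table held 45101 probe sets. After removal of 64 control probe sets, 45037 were tested with limma 3.58.1 in R 4.3.3: a mean per cell type over all 11 arrays, the contrast phrenic minus LMC radial, moderated two-sided tests and Benjamini-Hochberg adjustment over all probe sets. Platform annotation gave 34945 probe sets 1 gene symbol, 932 several and 9160 none; each of 18193 genes was represented by its brightest probe set with 1 symbol. The log2 values of 2 groups of 4 and 3 arrays limit the precision. Named genes were, in each direction, the 12 largest differences among genes above 5 in both groups, the 12 highest among genes below 5 in one group, up to 4 members of each list in each direction by p, and a set of column markers with all Hox genes. Non-overlap of the groups' arrays was required for every set of 12. The members and lists were chosen with earlier results of these data known. Marker and array measures were compared by exact permutation tests. The code was tested on simulated data. Alternatives covered scaling, dim probe sets, variance model, array weights, array sets, RNA length, mesenchyme, replicate numbers and single arrays left out.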

Additional observations from a re-analysis of the deposited data

Results flagged for a closer look

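Among the 4 phrenic arrays, 16 of 231 values tested had 1 array far from the other 3 by Dixon's test, where chance gives about 1 in 20 groups. Phrenic replicate 4 was the low array for 10 genes given above as higher or lower. It read Galnt13 at 6.37 against 8.60 to 8.74 on the others, Csmd3 at 4.25 against 7.42 to 7.70, and Cdh9 at 7.05 against 8.41 to 8.50. It read Syt17 at 5.61 against 6.79 to 6.92, Cntn1 at 9.19 against 10.28 to 10.37, and Klf5 at 6.71 against 7.69 to 7.84. It read Npy at 7.20 against 7.87 to 7.95, Ntng1 at 9.61 against 10.15 to 10.25, Cdh10 at 10.31 against 10.79 to 10.84, and Hs3st4 at 9.69 against 10.03 to 10.09. The same array was the high one for Crabp1, at 10.91 against 9.82 to 9.98, and for Pdk1, at 8.94 against 8.65 to 8.69. It also had the lowest weight in a fit that weighted arrays, 0.336, and the highest progenitor and cell cycle means of the 7 arrays. Of the other values, phrenic replicate 1 was high for Lifr (10.60 against 10.20 to 10.26) and for the dim Gabre (3.70 against 3.16 to 3.24). Phrenic replicate 3 was low for the dim Htr2c (2.62 against 3.17 to 3.23), and phrenic replicate 2 for the dim Myod1 (3.37 against 3.97 to 4.05). The 3 LMC radial arrays were too few to be tested in this way.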

How the results depend on the processing

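Of 177 named genes that passed, 138 passed whichever array was left out and 94 passed under every alternative that gave a value; none changed direction under an alternative. The 2979 probe sets (1567 higher, 1412 lower; 52.6% higher) became 1853 (1368 and 485) with dim probe sets left out, 1046 (673 and 373) with values below 5 raised to 5, and 1410 (799 and 611) with only the phrenic and LMC radial arrays in the fit. They became 778 (464 and 314) within the high array set, 1026 (619 and 407) with the Actb excess as covariate, and 1996 (1078 and 918) with the array set as a block. A further quantile normalization gave 2680 (42.5% higher) and centred medians 3227 (39.1%). Leaving out 1 array gave 1678 to 4266 probe sets, 911 to 2462 higher and 745 to 1804 lower; the extremes came without LMC radial replicate 2 or 3 and without phrenic replicate 4. Array weights gave 3872, a trended and robust variance 3235, the mesenchyme covariate 2530, and means over a gene's probe sets 1361 genes against 1251. Deviations of phrenic and LMC radial arrays with the same number correlated at 0.0081, -0.027 and -0.025. Arrays with different numbers correlated at -0.069 to 0.054. So few values cannot decide whether the numbers pair the samples. With the replicate number as a block 3537 probe sets passed (1978 and 1559). The cause of these shifts was not tested. Levels near the array background limit the size of differences in dim genes.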

Other observations

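Some genes gave different readings from different probe sets. Of 1886 genes with any probe set past the threshold, 289 had at least 2, and 25 had probe sets that passed in both directions. In Dclk1, which encodes a kinase that binds microtubules, a bright probe set was lower in phrenic neurons (9.32 ± 0.18 against 9.97 ± 0.10, mean ± SD; difference -0.64, adjusted p = 0.00906 by limma). A second, dimmer one was higher (6.38 ± 0.36 against 5.18 ± 0.30; difference 1.21, adjusted p = 0.0129). Both levels of the first probe set lay well above 5, and the other probe sets of the gene did not pass, apart from one that was higher (10.70 ± 0.17 against 10.20 ± 0.23). In Sez6, the product of which shapes dendrites, a probe set at 8.48 ± 0.08 against 6.05 ± 0.27 rose by 2.43. Another at 6.08 ± 0.16 against 5.39 ± 0.33 rose by 0.69 (adjusted p = 0.0327 by limma), while one below 5 in both groups fell. In Celf2, an RNA-binding regulator of splicing, 4 probe sets were higher in phrenic neurons and 1 dim probe set was lower. These genes were picked after their values were seen, and whether the probe sets read different transcripts was not tested.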
